A study of Homo sapiens with 3 samples.

Results

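S100 proteins are small calcium-binding proteins of the EF-hand class, in which a helix-loop-helix fold holds the calcium ion. They work mostly as dimers. When calcium binds, a surface opens that grips a target protein, such as an annexin or a myosin heavy chain. Several S100 proteins also leave the cell and act on receptors such as RAGE, encoded by AGER, and TLR4. In airway and other epithelia they are known for roles in the barrier, in inflammation and, in tumours, in cell movement.

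The levels of 10 S100 genes, out of 18856 genes listed in any library, are described here. The genes were chosen by name: S100A2, S100A4, S100A6, S100A8, S100A9, S100A10, S100A11, S100A14, S100A16 and S100P. Another 11 S100 genes were kept as a comparison list.

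The data are 3 libraries, each made from 10 pg of polyA+ mRNA. They are the Low-Input, Equal-Amplification (LIEA) library of HBE cells, the LIEA library of A549 cells and the Smart-seq2 library of HBE cells. HBE is a human bronchial epithelial cell line, and A549 is a human lung adenocarcinoma line with alveolar epithelial origin. No agent, genotype change or time course was part of the design, and the mRNA was diluted from bulk mRNA of each line. LIEA fragments the mRNA and ligates adapters before reverse transcription, and was read on an Ion Torrent sequencer. Smart-seq2 copies whole mRNA from an oligo-dT primer, amplifies the cDNA and was read on an Illumina sequencer. These data hold 1 library per condition, so no difference below has a replicate check and no p-value is given. The study also reports a biological replicate of HBE by LIEA and bulk mRNA-seq of both lines, which were not used here. The comparison of A549 with HBE by LIEA asks how the cell lines differ. That of LIEA with Smart-seq2 in HBE asks how the values differ between the library methods.

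The levels are in rpkM, reads per kilobase of transcript and per 1000000 mapped reads, or its log2. RPM is the same without the division by length. The libraries held 4605855 (HBE LIEA), 4154060 (A549 LIEA) and 9845150 (HBE Smart-seq2) mapped reads, recovered from the deposited values. A gene that is not listed had 0 reads, and a set limit of 3 reads then stands for it. It equals 0.651, 0.722 and 0.305 RPM in that order of libraries. The 95% interval of 0 reads reaches 3.69 reads. Intervals are 95% intervals of the reads and cover counting error only. A gene was compared if it had at least 10 reads in 1 of the libraries compared, and a difference counted when it was at least 2-fold. The labels of the lines were set against marker genes. All 6 basal airway markers were at least 2-fold lower in A549 than in HBE by LIEA, against 21% of all genes compared. KRT5 was 552 rpkM in HBE LIEA and 1.88 rpkM in A549. Against HBE Smart-seq2, ITGB4 was higher in A549 (80.6 against 43.7 rpkM), within 2-fold. Of the alveolar type 2 markers, SFTPA1 and SFTPC were not listed in any library, while ABCA3 was 2.39 rpkM in HBE LIEA and 13.9 rpkM in A549. SFTPB was nearly level, at 1.24 rpkM in HBE LIEA, 1.31 in A549 and 1.36 in HBE Smart-seq2. NAPSA had 7 reads in A549 and 0 in both HBE libraries. In RNA from a whole culture, fewer cells of a type and less RNA per cell cannot be told apart.

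All but S100P lie on chromosome 1, in or near band 1q21. In GRCh37 coordinates from GENCODE, the gene with the highest A549 level and that with the highest HBE LIEA level were neighbours. S100A4 spans chr1:153516089-153522612 and S100A2 spans chr1:153533584-153540366, both on the minus strand. S100A14 is at chr1:153586731-153589462, also on the minus strand, and S100A10 is apart from this group at chr1:151955391-151966335. S100P is alone on chromosome 4, at chr4:6695605-6698897.

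Promoter windows of these genes were split at a gap in their own CpG counts. Those with 22 or more CpG are called CpG-dense and those with at most 8 are called CpG-poor. The windows below run from 250 bases before to 50 bases after the RefSeq start, on GRCh38.p14, each given on the strand of its gene with CG dinucleotides in capitals. They show the S100 gene with the highest level in A549 (S100A4), that with the highest level in HBE LIEA (S100A2, its outermost start), a gene without a read in A549 (S100A14) and a gene read in all 3 libraries with a CpG-dense window (S100A10).
S100A4, chr1:153545757-153546056, minus strand: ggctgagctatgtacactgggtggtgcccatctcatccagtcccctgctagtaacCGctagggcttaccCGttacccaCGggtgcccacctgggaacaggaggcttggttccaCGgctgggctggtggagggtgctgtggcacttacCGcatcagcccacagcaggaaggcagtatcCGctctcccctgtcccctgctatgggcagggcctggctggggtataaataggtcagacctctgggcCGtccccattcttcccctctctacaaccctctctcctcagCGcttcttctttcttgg
S100A2, chr1:153565795-153566094, minus strand: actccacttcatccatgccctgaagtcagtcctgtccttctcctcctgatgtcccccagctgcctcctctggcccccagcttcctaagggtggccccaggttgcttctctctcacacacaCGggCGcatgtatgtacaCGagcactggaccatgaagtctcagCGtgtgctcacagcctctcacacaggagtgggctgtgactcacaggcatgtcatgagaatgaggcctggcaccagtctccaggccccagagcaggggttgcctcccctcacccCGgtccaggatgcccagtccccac
S100A14, chr1:153616276-153616575, minus strand: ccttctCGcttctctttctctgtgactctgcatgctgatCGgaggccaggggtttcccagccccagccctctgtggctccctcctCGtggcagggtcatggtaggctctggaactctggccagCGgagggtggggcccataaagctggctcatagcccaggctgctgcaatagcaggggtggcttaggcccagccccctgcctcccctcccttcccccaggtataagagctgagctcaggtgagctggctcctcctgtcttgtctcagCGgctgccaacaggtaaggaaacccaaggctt
S100A10, chr1:151993810-151994109, minus strand: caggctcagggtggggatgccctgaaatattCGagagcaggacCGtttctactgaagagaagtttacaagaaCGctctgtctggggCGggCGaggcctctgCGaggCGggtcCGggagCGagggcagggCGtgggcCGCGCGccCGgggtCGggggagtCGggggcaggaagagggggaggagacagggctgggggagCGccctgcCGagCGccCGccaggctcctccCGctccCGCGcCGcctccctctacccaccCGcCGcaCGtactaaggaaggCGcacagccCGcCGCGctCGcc

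The S100A10 window holds 32 CpG, those of S100A6 and S100A11 hold 31 and 22, and the other 7 genes hold between 2 and 8 in their outermost window. The median of all 35116 RefSeq windows of this length is 14. Of those windows, 41.6% hold no more CpG than the S100A4 window and 64.2% no more than the S100A11 window. The letters TATAAA, read on both strands, occur in a window of 4 of the 10 genes, and 11.5% of all windows hold them. The shares of all windows count single windows, while some of the 10 genes have several, S100A8 having 3. Their place is 31 bases before the start in S100A4, 29 before it in S100A9 and 28 before it in S100P. In S100A8 it is 29 bases before the start of the gene's second window. The letters TGANTCA, a form of the AP-1 motif, occur in the S100A2 window 52 bases before the start and in no other member's window, against 7.71% of all windows. A match is a description of these letters only.

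In the cell line comparison, 4 of the 10 genes were at least 2-fold higher in A549 (S100A4, S100A6, S100A10 and S100P). Of all 13630 genes compared, 20.3% were. Another 4 were at least 2-fold lower (S100A2, S100A8, S100A9 and S100A14), against 21% of all genes. These 4 were compared only through their HBE reads, with 4, 0, 2 and 0 reads in A549. A gene that enters in this way is likely to be called lower. S100A11 and S100A16 stayed within 2-fold. The median log2 difference over the 10 genes was 0.23, and over all genes compared it was -0.13. Measured against that median of all genes, the difference of S100A4 was 8.26, of S100A2 -9.13 and of S100A11 1.13, so that S100A11 also passed 2-fold.

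**Figure D1:**
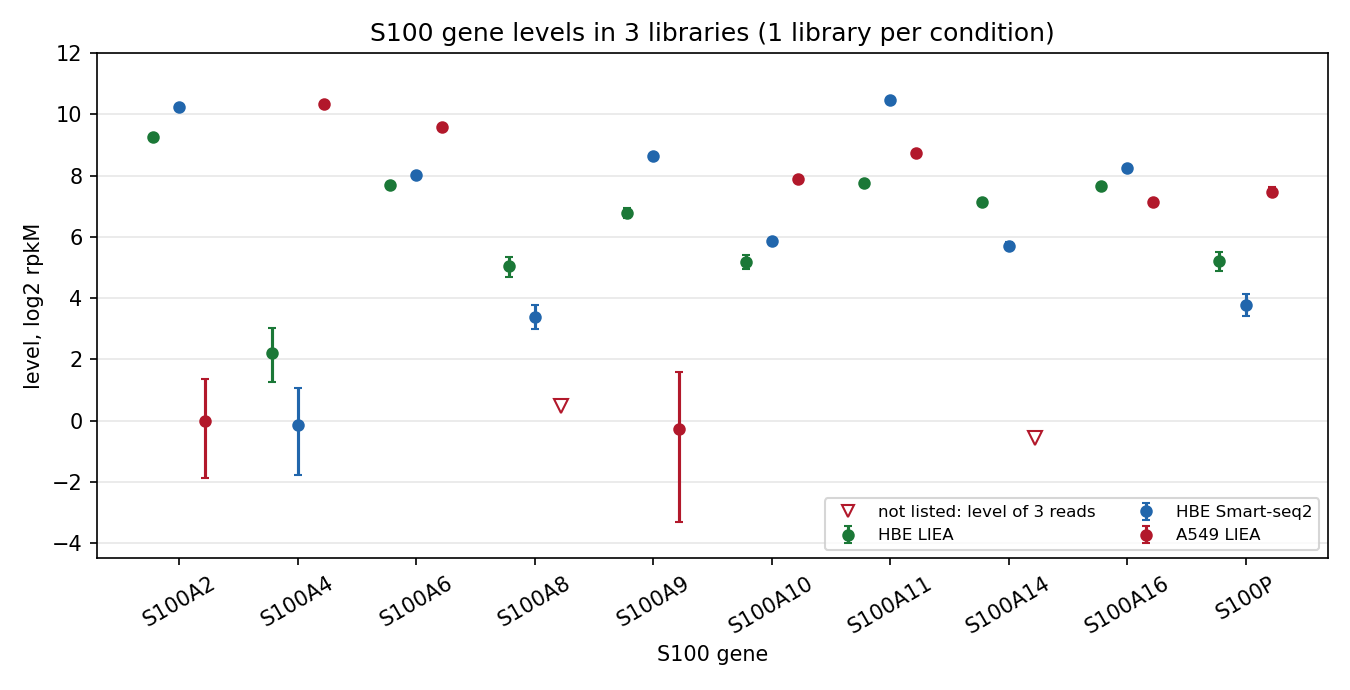
Level in log2 rpkM (vertical axis) of each S100 gene (horizontal axis) in the HBE LIEA, HBE Smart-seq2 and A549 LIEA libraries, with 95% counting intervals, which for many points are smaller than the symbol. Open triangles mark genes not listed in A549, drawn at the level of 3 reads. The A549 points of S100A2, S100A8, S100A9 and S100A14 sit far below both HBE points, and that of S100A4 sits far above them.

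S100A4, which binds non-muscle myosin and is known for its part in cell movement and metastasis, was the highest S100 gene of A549. Its level was 4.62 rpkM (12 reads) in HBE LIEA, 1295 rpkM (3033 reads) in A549 LIEA and 0.900 rpkM (5 reads) in HBE Smart-seq2. The gene was thus the lowest of the 10 S100 genes in both HBE libraries and the highest in A549. By LIEA the A549 level was 280-fold higher, a log2 difference of 8.13 (interval 7.32 to 9.08). Its myosin partner MYH9 was 201 rpkM in HBE LIEA, 111 rpkM in A549 and 114 rpkM in HBE Smart-seq2, within 2-fold throughout. Fibroblasts are another known source of S100A4. Of 5 fibroblast markers, COL1A2 and DCN were not listed in any library, and COL1A1 was 6.41 rpkM in HBE LIEA and 3.78 rpkM in A549. The summed level of that list was 38.2 RPM in HBE LIEA, 23.1 in A549 and 9.24 in Smart-seq2, nearly all of it COL1A1. The part of such cells in the S100A4 difference was not tested.

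S100A2, a gene of basal epithelial cells and a known target of the p53 family, showed the reverse. Its level was 617 rpkM (2735 reads) in HBE LIEA, 1.001 rpkM (4 reads) in A549 LIEA and 1209 rpkM (11454 reads) in HBE Smart-seq2. Both HBE libraries were high and A549 was close to the limit of 3 reads. The A549 level was 617-fold lower by LIEA, with a log2 difference of -9.27 (interval -11.15 to -7.91). TP63, the p53 family member of basal cells, was 31.2 rpkM in HBE LIEA, 4.41 rpkM in A549 and 14.3 rpkM in HBE Smart-seq2. The basal keratin KRT17 was 1097 rpkM in HBE LIEA and 1.99 rpkM in A549. The part of these basal markers in the S100A2 difference was not tested. S100A4 was thus below S100A2 in HBE and above it in A549. The ratio of S100A4 to S100A2 rpkM was 0.00748 in HBE LIEA (interval 0.00386 to 0.0131) and 1293 in A549 (interval 505 to 4750).

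S100A14, a gene of epithelial cells, was read in HBE alone. It stood at 140 rpkM (683 reads) in HBE LIEA and 52.4 rpkM (547 reads) in HBE Smart-seq2, and had 0 reads in A549. With A549 set at 3 reads, its level was 205-fold lower than in HBE LIEA. The interval of the log2 difference ran up to -7.38. Other epithelial genes were still read in A549. EPCAM was 57.1 rpkM in HBE LIEA and 7.29 rpkM in A549, CDH1 was 57.1 and 19.4 rpkM, and the simple-epithelium keratin KRT8 was 506 and 3957 rpkM.

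S100A8 and S100A9, whose proteins pair to form calprotectin, an antimicrobial and inflammatory complex abundant in neutrophils, were also read in HBE and nearly absent from the A549 library. S100A8 was 32.8 rpkM (79 reads) in HBE LIEA, 10.5 rpkM (54 reads) in HBE Smart-seq2 and not listed in A549. Set at 3 reads, A549 was 23.8-fold lower than HBE LIEA, and the interval of the log2 difference ran up to -4.24. S100A9 was 111 rpkM (295 reads) in HBE LIEA, 397 rpkM (2257 reads) in HBE Smart-seq2 and 0.834 rpkM (2 reads) in A549. The A549 ratio rests on those 2 reads, with a log2 difference of -7.06 (interval -10.11 to -5.19). In both HBE libraries S100A9 exceeded its partner, 3.38-fold by LIEA (interval 2.63 to 4.40) and 37.9-fold by Smart-seq2 (interval 28.9 to 50.6). S100A12, the third gene of this inflammatory set, had 0 reads in both LIEA libraries and 3 reads in Smart-seq2.

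Myeloid cells are the best known source of S100A8 and S100A9, so leukocyte markers were read beside them. Of 6 markers, FCGR3A had 0 reads in every library, and the pan-leukocyte gene PTPRC had 0 reads in HBE LIEA, 2 in A549 and 3 in HBE Smart-seq2. CD14 was 8.17 rpkM in HBE LIEA, 26.3 rpkM in A549 and 3.20 rpkM in HBE Smart-seq2. The summed list was 24.3, 59.7 and 30.3 RPM in the same order, and CD14 alone gave 43.3 RPM of the A549 sum. LYZ gave 9.99, 14.4 and 24.6 RPM in that order, most of the Smart-seq2 sum. Between the HBE libraries CD14 was higher by LIEA (log2 1.35) and LYZ lower (log2 -1.30). The part of such cells in the S100A8 and S100A9 levels was not tested. TLR4, a receptor for calprotectin, was low throughout, at 0.826 rpkM in HBE LIEA, 0.125 rpkM in A549 and 0.914 rpkM in HBE Smart-seq2.

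Among the A549-high genes, S100A10 and S100A6 were well read in every library. S100A10 has lost the ability to bind calcium and joins annexin A2 in a stable complex at the plasma membrane. It was 36.2 rpkM (176 reads) in HBE LIEA, 238 rpkM (1045 reads) in A549 and 58.0 rpkM (602 reads) in HBE Smart-seq2. A549 was above both HBE libraries, 6.58-fold by LIEA (log2 2.72, interval 2.49 to 2.96). ANXA2, its annexin, was higher in A549 too, at 427 rpkM in HBE LIEA, 1750 rpkM in A549 and 519 rpkM in HBE Smart-seq2. The annexin exceeded S100A10 in every library, 11.8-fold in HBE LIEA (interval 10.1 to 13.8), 7.34-fold in A549 (interval 6.89 to 7.82) and 8.95-fold in HBE Smart-seq2 (interval 8.24 to 9.74).

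S100A6, or calcyclin, is common in dividing cells and binds annexins and the protein encoded by CACYBP. Its level was 206 rpkM (647 reads) in HBE LIEA, 758 rpkM (2150 reads) in A549 and 259 rpkM (1740 reads) in HBE Smart-seq2. The HBE libraries were close to each other and A549 was above both, 3.68-fold by LIEA (log2 1.88, interval 1.75 to 2.01). CACYBP was 27.5 rpkM in HBE LIEA, 17.2 rpkM in A549 and 109 rpkM in HBE Smart-seq2, lower in A549 than in both HBE libraries.

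S100P, first found in placenta and known to bind ezrin, was 37.04 rpkM (87 reads) in HBE LIEA, 177 rpkM (376 reads) in A549 and 13.7 rpkM (69 reads) in HBE Smart-seq2. A549 was again above both HBE libraries, 4.79-fold by LIEA (log2 2.26, interval 1.92 to 2.61). Ezrin (EZR) was 116 rpkM in HBE LIEA, 162 rpkM in A549 and 280 rpkM in HBE Smart-seq2, so A549 lay between the HBE libraries, within 2-fold of each.

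S100A16, which is expressed in many tissues, varied least between the lines. It was 202 rpkM (993 reads) in HBE LIEA, 139 rpkM (617 reads) in A549 and 300 rpkM (3151 reads) in HBE Smart-seq2. A549 was below both HBE libraries, 1.45-fold by LIEA (log2 -0.54, interval -0.68 to -0.39). Against HBE Smart-seq2 it was 2.15-fold lower (log2 -1.11, interval -1.23 to -0.98). S100A11, which binds annexin A1 and is cross-linked into the cornified envelope, was 215 rpkM (588 reads) in HBE LIEA, 428 rpkM (1057 reads) in A549 and 1395 rpkM (8159 reads) in HBE Smart-seq2. It was the only one of the 10 genes whose A549 level lay between those of the HBE libraries, 1.99-fold above LIEA and 3.26-fold below Smart-seq2. The direction of the cell line difference for S100A11 therefore depended on the HBE library used. ANXA1 had the same order of libraries, at 179, 550 and 937 rpkM for HBE LIEA, A549 and HBE Smart-seq2. The annotation holds 8 pseudogenes of S100A11, on chromosomes 7 and X, and sharing of reads with them was not tested.

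**Figure D2:**
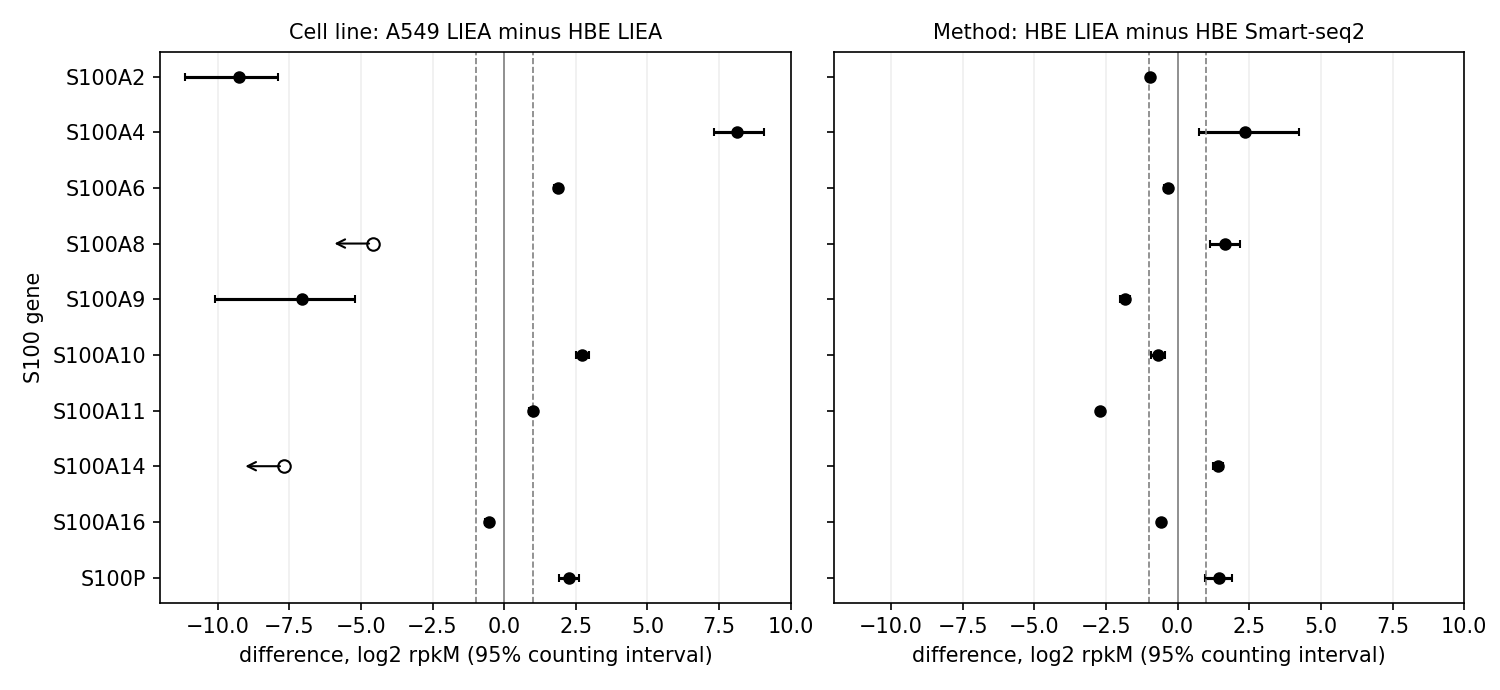
Log2 difference in rpkM (horizontal axis) of each S100 gene (vertical axis) for A549 LIEA minus HBE LIEA (left) and HBE LIEA minus HBE Smart-seq2 (right), with 95% counting intervals. Open circles with arrows are bounds for genes with 0 reads in A549, and dashed lines mark 2-fold. The cell line differences span -9.27 to 8.13, the method differences -2.70 to 2.36.

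The same 8 genes stood at least 2-fold beyond both HBE libraries, 4 above (of all 14502 genes compared, 15.5%) and 4 below (13% of them). This comparison was added after the data were seen, and the 4 genes below again entered it only through their HBE reads. The A549 library is shared by both comparisons, so they are not independent. Against Smart-seq2, S100A4 was 1438-fold higher and S100A2 1208-fold lower in A549. With A549 set at 3 reads, S100A8 and S100A14 were 7.59-fold and 76.9-fold lower. The intervals of these log2 differences ran up to -2.58 and -5.96.

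The values of these genes also differed between the HBE libraries made by the different methods. In HBE, 4 of the 10 genes were at least 2-fold higher by LIEA than by Smart-seq2 (S100A4, S100A8, S100A14 and S100P), where 28.4% of all 13567 genes compared were. S100A4 entered this comparison only through its 12 LIEA reads, against 5 by Smart-seq2. A gene that enters in this way is likely to be called higher. S100A9 and S100A11 were at least 2-fold lower, where 22.2% of all genes were. S100A11 moved most, 6.49-fold lower by LIEA (log2 -2.70, interval -2.82 to -2.58). S100A9 was 3.58-fold lower (log2 -1.84, interval -2.02 to -1.66). On the other side, S100A8 was 3.13-fold higher by LIEA (log2 1.64, interval 1.13 to 2.17), so the calprotectin subunits moved in opposite directions. S100A14 was 2.67-fold and S100P 2.70-fold higher, and S100A4 was 5.13-fold higher on 12 against 5 reads (log2 2.36, interval 0.75 to 4.22). S100A2, S100A6, S100A10 and S100A16 stayed within 2-fold, all lower by LIEA, at log2 differences of -0.97, -0.33, -0.68 and -0.57. A shift of 0.15 (log2) between these libraries, estimated by the TMM scaling of read counts, moves S100A2 to -1.12 and so past 2-fold. Library chemistry, amplification, sequencer and read filters all differ between the methods and cannot be told apart. With 1 library per method, variation between single libraries cannot be told apart from the method either.

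The 10 transcripts are short, at 510 to 1068 nt with a GC content of 47.5% to 58.4%, while the median length of all listed genes was 2718 nt. Genes in that length range had a median log2 difference of -0.55 between LIEA and Smart-seq2 (933 genes), and 36.8% of them were at least 2-fold lower by LIEA. For genes in the same GC range the median was 0.34 (4518 genes), and in both ranges it was -0.49 (382 genes). The median over the 10 S100 genes was -0.45 and over all genes 0.04. The part of length and GC in the method differences was not tested further.

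As a family, the 10 genes held 0.137% of mapped reads in HBE LIEA (Wilson interval 0.133% to 0.140%), 0.199% in A549 (0.195% to 0.204%) and 0.285% in HBE Smart-seq2 (0.281% to 0.288%). The HBE libraries stood on either side of A549. At least 10 reads were found for 10 genes in HBE LIEA, 6 in A549 and 9 in HBE Smart-seq2.

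Per length, the leading genes changed with the line. In HBE LIEA, S100A2 made up 38.5% of the summed rpkM of the 10 genes, followed by S100A11 at 13.4%, S100A6 at 12.8% and S100A16 at 12.6%. Of these neighbours, S100A11 and S100A6, and S100A6 and S100A16, did not differ beyond counting error. In A549, S100A4 led with 42.6%, ahead of S100A6 at 24.9%, S100A11 at 14.1%, S100A10 at 7.85%, S100P at 5.84% and S100A16 at 4.58%, and the remaining S100A2 and S100A9 did not differ from each other. In HBE Smart-seq2, S100A11 with 37.8% and S100A2 with 32.7% led, before S100A9 at 10.8%. S100A2 was thus a leading gene of both HBE libraries, and S100A4 was the lowest in both.

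**Figure D3:**
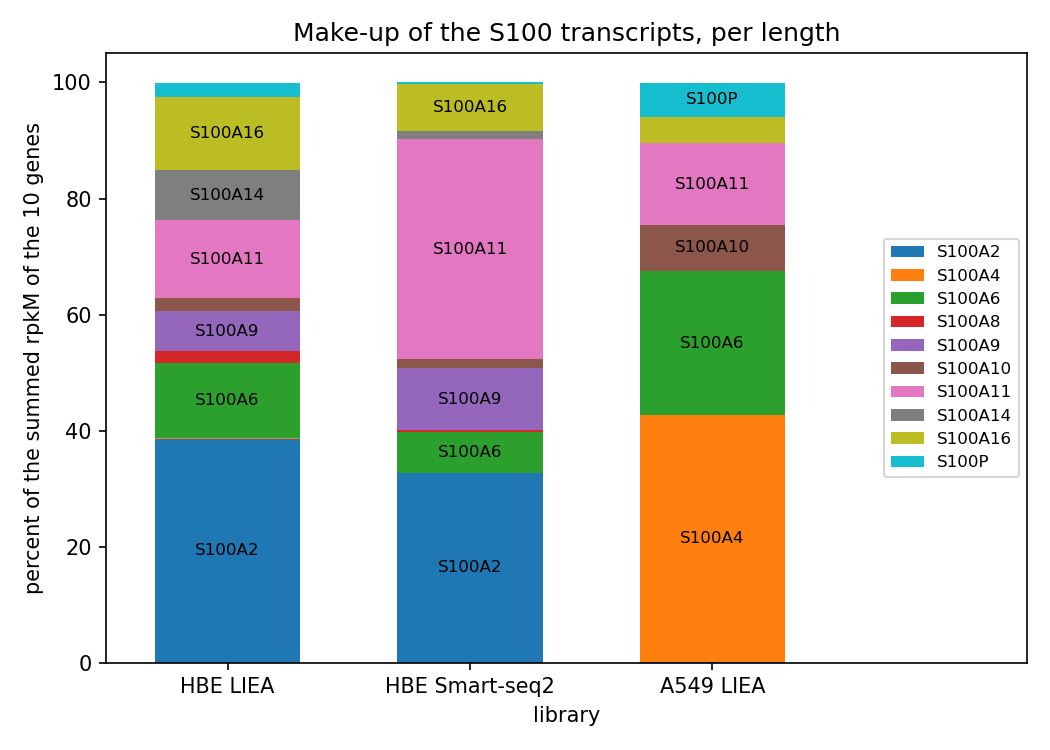
Share in percent (vertical axis) of each S100 gene in the summed rpkM of the 10 genes, for each library (horizontal axis). S100A2 fills 38.5% and 32.7% of the HBE bars and is hardly visible in A549, where S100A4 fills 42.6%.

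Along the 1q21 cluster, neighbouring genes went different ways. S100A9 and S100A8 at its start were lower in A549. The next member, S100A6, and S100A4 beyond it were higher, and S100A3, which lies inside the span of S100A4 on the same strand, was 5.59 rpkM in HBE LIEA and 20.9 rpkM in A549 (log2 1.90, interval 1.14 to 2.72). Reads that S100A3 and S100A4 may share could not be separated. S100A2, the next gene along, was lower, S100A16 was within 2-fold and S100A14 was lower, and S100A13 after them was higher, at 17.7 rpkM in HBE LIEA and 37.9 rpkM in A549. S100A13 overlaps S100A1 on the other strand. The genes of other function just past the cluster, CHTOP, SNAPIN and ILF2, had log2 differences of -0.10, 0.67 and -0.28, all within 2-fold.

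**Figure D4:**
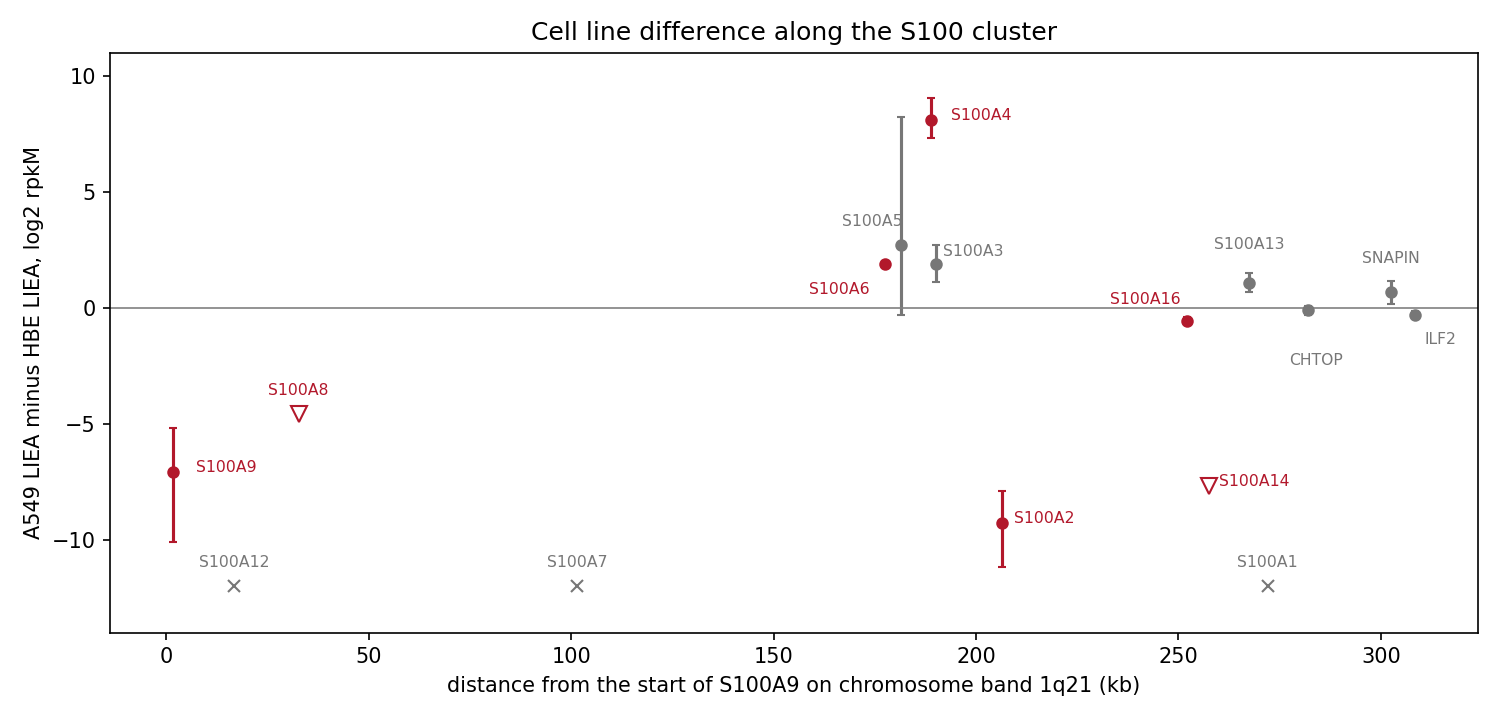
Log2 difference in rpkM of A549 LIEA minus HBE LIEA (vertical axis) against distance in kb from the start of S100A9 (horizontal axis), with 95% counting intervals. Red marks the described S100 genes, grey their neighbours, open triangles are bounds, and crosses at the bottom mark genes with too few reads for a difference. S100A4 at 8.13 and S100A2 at -9.27 lie side by side.

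The promoter kinds shown above can be set beside these differences. The 3 CpG-dense genes, S100A6, S100A10 and S100A11, had more than 10 reads in all 3 libraries, and their A549 levels were 1.99-fold to 6.58-fold above HBE LIEA. Against HBE Smart-seq2, S100A11 was 3.26-fold lower in A549. The CpG-poor S100A16 and S100P also had more than 10 reads in all 3 libraries, and S100P was 4.79-fold above HBE LIEA. The log2 differences of the 7 CpG-poor genes ranged from -9.27 to 8.13. S100A16, with 3 CpG, was within 2-fold of HBE LIEA and 2.15-fold below HBE Smart-seq2 in A549. The order was noticed in these 10 genes after their values were known. Of all genes compared, 79.3% had a promoter window. No check over them is given, so whether the order holds beyond the 10 genes was not tested.

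**Figure D5:**
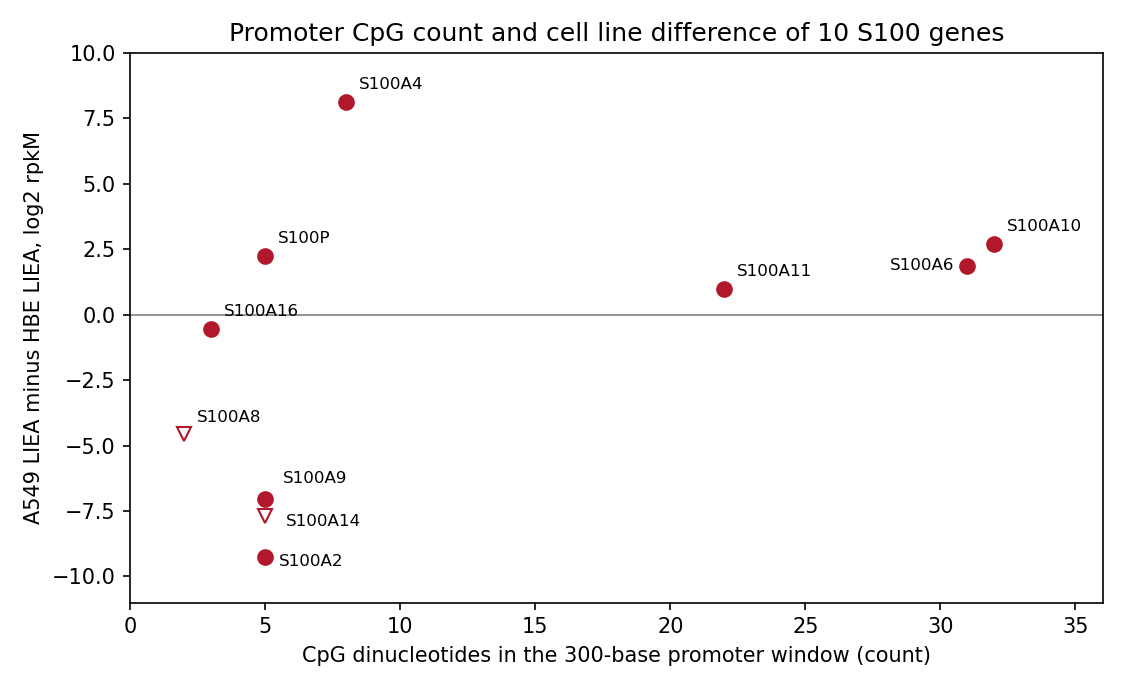
Log2 difference in rpkM of A549 LIEA minus HBE LIEA (vertical axis) against the number of CpG dinucleotides in the outermost 300-base promoter window (horizontal axis) for the 10 S100 genes, with open triangles for bounds. The 3 genes with 22 to 32 CpG were 1.99-fold to 6.58-fold higher in A549 than in HBE LIEA. The 7 genes with 2 to 8 CpG spread from -9.27 to 8.13, S100P among them at 2.26.

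Other genes of the family and its partners were counted in full. Of the 11 other S100 genes, 6 were listed in any library and 2 had enough reads for the cell line comparison, S100A3 and S100A13, both at least 2-fold higher in A549, as were 20.3% of all genes compared. S100A7, psoriasin, had 3 reads in HBE LIEA, 0 in A549 and 21 in HBE Smart-seq2. The fused-type S100 genes join an S100 domain to long repeats and serve in the cornified layer of skin. Of 7 such genes, 4 were compared and all 4 were at least 2-fold lower in A549, among them FLG, filaggrin, at 2.01 rpkM in HBE LIEA and 0.340 rpkM in A549. Of all genes compared 21% were, and FLG2 and TCHH were compared only through their HBE reads, with 6 and 1 reads in A549. HRNR, hornerin, was 2.77 rpkM in HBE LIEA, 0.950 rpkM in A549 and 0.0844 rpkM in HBE Smart-seq2, so its direction depended on the HBE library. FLG was 0.199 rpkM in HBE Smart-seq2, and its difference from A549 there was within counting error (log2 0.77, interval -0.19 to 1.70).

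Of 11 binding partners and receptors, all were compared. ANXA1 and ANXA2 were at least 2-fold higher in A549 (log2 1.62 and 2.03), AHNAK and TLR4 at least 2-fold lower (log2 -1.13 and -2.73), and the other 7 were within 2-fold. Of all genes compared, 20.3% were at least 2-fold higher and 21% lower, and the lists below can be read against those shares. TLR4 was compared only through its HBE reads, with 6 reads in A549. AGER, the gene of the receptor RAGE, was 4.41 rpkM in HBE LIEA, 3.60 rpkM in A549 and 0.486 rpkM in HBE Smart-seq2. AHNAK, a very large scaffold protein that binds the S100A10 and annexin A2 complex, was 75.9 rpkM in HBE LIEA, 34.8 rpkM in A549 and 12.1 rpkM in HBE Smart-seq2, so its direction depended on the HBE library. Of 8 other EF-hand genes, including the calmodulin genes, 6 were compared and 0 were 2-fold apart in either direction. No cornified envelope gene of the 7 listed from 1q21 had 10 reads in either LIEA library, and A549 listed 0 of them, while 4 had at least 10 reads in HBE Smart-seq2. For 5 flanking genes of other function, 1 was at least 2-fold higher in A549, THEM4 (log2 1.04).

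Among genes with at least 10 reads in every library, those nearest in pattern to S100A4 were UCHL1, FN1 and ABCC3. S100A4 itself had 5 reads in HBE Smart-seq2 and did not meet that minimum. Genes as low as S100A4 in that library were thus left out of the search. The measure was the Euclidean distance over 3 log2 rpkM values, among 10901 genes with at least 10 reads in every library, and the distances were 1.48, 1.86 and 2.76. FN1, fibronectin, was 2.01, 9.45 and 1.47 log2 rpkM in HBE LIEA, A549 and HBE Smart-seq2. Nearest to S100A16, the most negative difference with at least 10 reads in both LIEA libraries, were RPL34, HSPA5 and RAB1B, at distances of 0.05, 0.21 and 0.22 among 10900 genes. These patterns rest on 3 points per gene and were not tested.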

How the data were processed

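The libraries were 3, with 1 per group, grouped by the labels. Per the study's methods, short or low-quality Ion Torrent reads were dropped, FANSe2 aligned the rest and the Illumina reads against RefSeq-RNA, splice variants of a gene were merged, and the authors deposited log2 rpkM per gene. The labels name hg19. The design fixed earlier assumed reads and rpkM, so values were first raised from log2 to rpkM, and reads were recovered as whole numbers that fit every library. As library total, the largest whole value was taken for which over 70% of 300 low genes had a whole length at 1 read. The whole factor shared by reads and length was the most probable one from 1 to 12, given GENCODE 44 transcripts; 94.3% of genes matched. It was above 1 for 1459 of 18856 genes and for none of the S100 genes described. Recovered reads summed to 98.9%, 99.4% and 99.1% of the totals in HBE LIEA, A549 LIEA and HBE Smart-seq2. Per library, 4 repeated date-like names and, in Smart-seq2, 1589 blank entries were left out. The steps were tested on data simulated from the recovered lengths and reads. All 3 totals came back, as did the exact reads of 94.6% of 18293 genes and of the 10 described. The reads were recovered there with the true totals. The test therefore cannot show that the lengths and factors of the real data are right. 

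Differences are log2 ratios of rpkM, without a pseudocount, with exact conditional binomial 95% intervals. A library with 0 reads was set at 3 reads. Shares have Wilson intervals. PCR reads are not independent molecules, so intervals and limits cover counting error only. The genes named were the 10 members, the lists given in the text and the 3 genes nearest in pattern; the members and lists were chosen with earlier results of these data known. Alternatives were another scaling, a pseudocount of 1, other minimum reads, 4-fold, thinned Smart-seq2 reads and other denominators. Promoter windows came from RefSeq on GRCh38.p14. Scripts ran in Python 3.11.15 with pandas 2.3.3, matplotlib 3.10.9, scipy 1.17.1 and numpy 2.4.6. No protein sequence was used here.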

Additional observations from a re-analysis of the deposited data

How the results depend on the processing

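No paired analysis was possible because each group had 1 library, and no replicate could be left out. Of 41 alternative values of the counts and shares, 35 stayed within 1.5 times the count or within the counting interval. At 4-fold in place of 2-fold, 1 gene was higher by LIEA than by Smart-seq2 and 1 was lower. As a share of the summed rpkM of all genes, in place of mapped reads, the 10 genes held 0.382% in HBE LIEA, 0.648% in A549 and 0.767% in HBE Smart-seq2, and without the MTRNR2L genes in the total the Smart-seq2 share was 0.296%. These moves follow from the other threshold and denominators. The median-centred and the TMM scaling each gave 5 genes higher in A549 and 3 lower by LIEA than by Smart-seq2. With at least 20 reads, 3 genes were higher by LIEA, since S100A4 no longer entered. For single genes, 80 alternative differences had 74 within the counting interval, 0 reversals and 0 changes of sign. The counts limit S100A8 and S100A14 most, which had 0 reads in A549 and so only a bound. They also limit S100A2, S100A9 and S100A4, where 1 library held 4, 2 and 5 reads. One library per condition leaves the spread between cultures unmeasured.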
